A study of Mus musculus with 18 samples.

Results

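The classical and lectin pathways of complement were followed through the 10 genes *C1ra*, *C1s1*, *C2*, *C4b*, *C4bp*, *Mbl1*, *Mbl2*, *Masp1*, *Masp2* and *Serping1*, chosen by symbol from 22524 listed genes, in mouse liver RNA. Whole liver RNA was sequenced from 10 A226Y and 8 WT mice, with 1 library per mouse, and all animals were female, C57BL/6 and 15 months old. A226Y mice were heterozygous for a knock-in allele of *Rps2*, which encodes a protein of the small ribosomal subunit, with a transcriptional STOP cassette between loxP sites in exon 1 and the A226Y substitution in exon 3, and they carried the ubiquitously expressed CMV-Cre deleter. Excision was partial, so these animals were mosaics that held both the mutant allele and the floxed, silenced allele, while the WT mice had no targeted allele and carried the same Cre. The line was derived from embryonic stem cells of another mouse strain and backcrossed to C57BL/6, and A226Y makes the ribosome read messenger RNA with more errors. The study itself reported complement genes from calls on these mice, so their direction here is not independent evidence of it. The paper also measured *C2* messenger RNA by qRT-PCR and reports the same pattern as in its sequencing.

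Complement is a cascade of plasma proteins that tags microbes and debris for removal, and the liver is the main source of most of its components. In the classical pathway, C1q bound to antibody activates the proteases C1r and C1s, and in the lectin pathway, mannose-binding lectins and their relatives bind sugars and activate the proteases MASP-1 and MASP-2. Both routes cut C4 and C2 to form the same C3 convertase. C1 inhibitor, the product of *Serping1*, blocks the proteases of both routes, and C4-binding protein takes the convertase apart. Several of these genes, *C4b*, *C2* and *Serping1* among them, are known to respond to inflammatory cytokines or interferon-γ.

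Binding motifs were looked for on both strands of the RefSeq promoter windows (GRCm38.p6, 250 bases before to 50 bases after a start site), which were present for *C1ra*, *C1s1*, *C4bp*, *Mbl1*, *Mbl2* and *Masp2* (7 windows) and not for *C2*, *C4b*, *Masp1* and *Serping1*. The STAT-binding GAS motif, TTCNNNGAA, was found in the windows of *C1ra* and *Masp2* and in 8.3% of all 32851 windows. The C/EBP motif, TTGCNNAA, was found in *C1ra* and in 1 of the windows of *C1s1*, against 10.8% of all windows, and GTTAATNAT, a part of the HNF1 motif, in *C4bp*, against 0.801%. The interferon-response core GAAANNGAA (8.56% of all windows) and the HNF4 motif CAAAGTCCA (0.475%) had no match in the 7 windows. The matches are shown because they are the stretches of these promoters that resemble sites of inflammatory and liver-enriched factors; each line runs 5′ to 3′ along the gene's own strand with the motif in capitals, and no binding was measured.
*C1ra*, GAS at position 33, chr6:124512641-124512670, plus strand: gcaaatgcttcaTTCCCTGAAacattcctc
*C1ra*, C/EBP at position 17, chr6:124512626-124512655, plus strand: ttttttgctgtTTATGCAAatgcttcattc
*C1s1*, C/EBP at position -242, chr6:124542580-124542609, minus strand: agagagaaTTAGGCAAtctcaaaattcccc
*C4bp*, part of the HNF1 motif at position -64, chr1:130661663-130661692, minus strand: gctctagtctGTTAATCATtcaccgggaca
*Masp2*, GAS at position -53, chr4:148602481-148602510, plus strand: catgggtagaTTCCCAGAAtccttggtttg
Positions count from the RefSeq start site, the GAS and C/EBP matches of *C1ra* lie side by side just after it, and a match of letters is a description, not a site.

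Total counts were 25869192 to 34918732 in the WT mice (median 31702989) and 23850565 to 62126131 in the A226Y mice (median 32058379), and every complement gene of the 10 had at least 1073 counts in each library. Values are given in CPM, counts scaled to the size of each library with TMM, which corrects for a few very abundant transcripts. *Rps2* itself, summed over all its alleles, was 114 ± 13 CPM (SD, n = 8) in WT and 68.6 ± 13.3 CPM (SD, n = 10) in A226Y livers, and every A226Y mouse lay below every WT mouse (log2 fold change -0.73, SE 0.11, adjusted p = 0.000772). Hepatocyte markers summed to between 122968 and 223245 CPM in WT and between 117308 and 182848 CPM in A226Y mice, so the tissue matched its label in each library. The libraries of WT animal 33 and A226Y animal 29 stood apart for many of the genes below. For the 10 genes and for the calls in many of the lists, results are also given without them. Values of single genes of the lists rest on all mice. In whole tissue, fewer cells of a type and less RNA per cell cannot be told apart. Nor can the A226Y substitution and the lower total *Rps2* level, which came together in the A226Y mice. The paper compared mice haploinsufficient for *Rps2* separately, and those mice are not among these samples.

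All 10 complement genes had a lower mean log2 level in A226Y than in WT livers, and 5 of them were called lower at an adjusted p under 0.05 over all 13353 tested genes: *C1ra*, *C1s1*, *Mbl1*, *Mbl2* and *Masp2*. None was called higher by edgeR, by DESeq2 or by limma-voom, and 0 were higher at an unadjusted p under 0.05. The median log2 fold change of the 10 was -0.36, against -0.00 over all tested genes, of which 50.8% had a negative value. As background, 7.03% of all tested genes were called lower and 7.27% higher. At an unadjusted p under 0.05, 8 of the 10 were lower (all but *C4bp* and *Masp1*), against 14.7% of all tested genes. In none of the 10 did every A226Y mouse lie below every WT mouse, a separation seen for 0.285% of all tested genes. These calls were lost when 4 surrogate variables, estimates of hidden variation taken from the counts, were added as covariates. In that fit 0 of the 10 were called, and only 21 genes of all those tested (0.157%) were called lower. At an unadjusted p under 0.05, 5 of the 10 were lower in it. The share of all tested genes at that unadjusted threshold is not given for this fit, here or for the lists below. The log2 fold changes were also smaller in that fit, at -0.25 for *C1ra*, -0.23 for *C1s1*, -0.15 for *Mbl1*, -0.25 for *Mbl2*, -0.18 for *Masp2*, -0.30 for *C4b*, -0.13 for *C2*, -0.15 for *C4bp*, -0.06 for *Serping1* and -0.01 for *Masp1*. It also called none of the genes of the other lists below lower. The share of all tested genes called lower was 8.77% with DESeq2, 6.87% with limma-voom and 9.13% (1212 of 13269) with WT animal 33 and A226Y animal 29 both left out, and counts under those settings below are to be read against these shares.

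**Figure D1:**
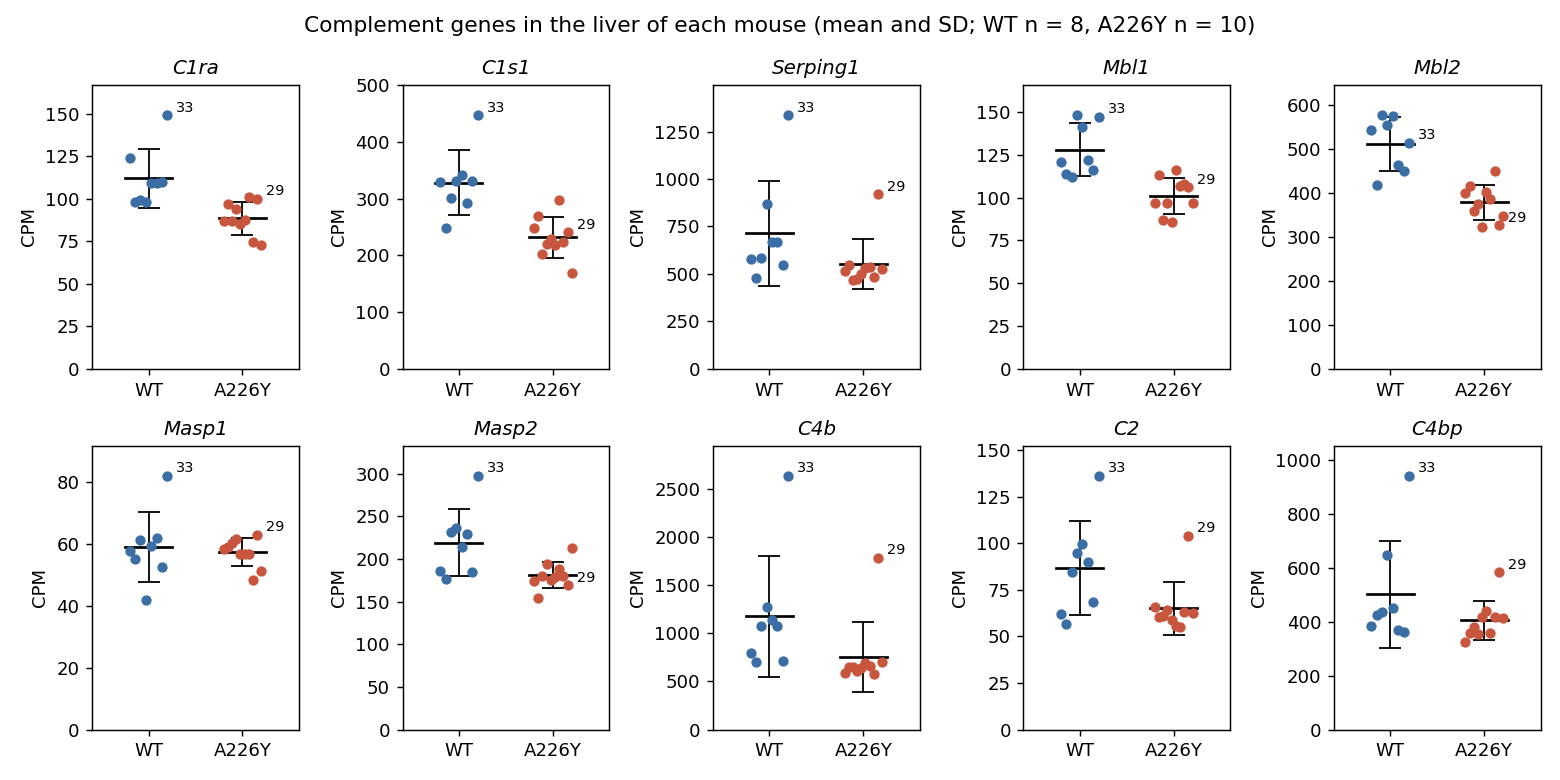
Level of each complement gene in CPM (linear axis from 0) in every liver, with WT mice in blue (n = 8) and A226Y mice in red (n = 10); horizontal lines are means and error bars SD, and the numbers mark WT animal 33 and A226Y animal 29. *Mbl2* runs from 418 to 577 CPM in WT and from 324 to 451 CPM in A226Y mice, while *C4b* reaches 2629 CPM in WT animal 33 and 1779 CPM in A226Y animal 29.

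The mannose-binding lectin genes were lower in A226Y livers, and *Mbl2* had the smallest p-value of the 10 genes. *Mbl2* (ENSMUSG00000024863, chr19:30232942-30239687, plus strand) encodes mannose-binding lectin C. It ranged from 418 to 577 CPM in WT mice (median 529) and from 324 to 451 CPM in A226Y mice (median 381), and 9 of 10 A226Y mice lay below every WT mouse. The groups overlapped through A226Y animal 23 alone, at 451 CPM. The mean was 512 ± 60.9 CPM (SD, n = 8) in WT and 379 ± 40.5 CPM (SD, n = 10) in A226Y mice. The log2 fold change was -0.43 (SE 0.08, adjusted p = 0.00294), and a two-sided exact permutation test over all 43758 divisions of the mice gave p = 6.86e-05.

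*Mbl1* (ENSMUSG00000037780, chr14:41151458-41159601, plus strand), which encodes mannose-binding lectin A, ranged from 112 to 148 CPM in WT mice (median 121) and from 86 to 116 CPM in A226Y mice (median 102). All 10 A226Y mice were under the WT mean of 128 CPM and 8 of them under every WT mouse, so the overlap was narrow. *Mbl1* fell by 0.33 on the log2 scale (SE 0.08, adjusted p = 0.00767, exact permutation p = 0.000229). Neither lectin gene was highest in WT animal 33, which read 147 CPM for *Mbl1* and 515 CPM for *Mbl2*, and A226Y animal 29 was second lowest of its group for *Mbl2*, at 327 CPM. Both calls held when each mouse was left out in turn, with adjusted p-values of 0.00498 to 0.0198 for *Mbl1* and 0.000906 to 0.00792 for *Mbl2*. No 50-base stretch of either transcript was shared with another annotated gene.

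The proteases of the classical pathway were lower as well. *C1s1* (ENSMUSG00000038521, chr6:124530345-124542359, minus strand) encodes C1s, the enzyme that cuts C4 and C2. It ranged from 248 to 447 CPM in WT mice (median 330) and from 169 to 298 CPM in A226Y mice (median 227). Its WT range was stretched by animal 33 at the top and animal 6 at the bottom, and 7 of 10 A226Y mice were below every WT mouse. The log2 fold change of -0.50 (SE 0.11, adjusted p = 0.00563, exact permutation p = 0.000389) was the largest fall among the 5 called genes.

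*C1ra* (ENSMUSG00000055172, chr6:124512405-124523443, plus strand) encodes C1r, which activates C1s, and lies beside *C1s1*. It ranged from 97.9 to 149 CPM in WT mice (median 109) and from 72.8 to 101 CPM in A226Y mice (median 87.3). The overlap was small, since only A226Y animals 22 and 29, at 101 and 100 CPM, were not below every WT mouse. *C1ra* fell by 0.34 on the log2 scale (SE 0.09, adjusted p = 0.0133, exact permutation p = 0.00064). Both protease genes have a near copy next to them: 48% of the 50-base stretches of the *C1ra* transcript also occur in *C1rb* and 24.3% of those of *C1s1* in *C1s2*, so reads could be split between copies. *C1rb* had 0 to 3 counts and *C1s2* 0 to 6 counts in any library, too few to be tested.

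*Serping1* (ENSMUSG00000023224, chr2:84765387-84775444, minus strand), the gene of the inhibitor of these proteases, was not called. It ranged from 479 to 1335 CPM in WT mice (median 625) and from 469 to 920 CPM in A226Y mice (median 521). WT animal 33 and A226Y animal 29 were each far above the rest of their group, and 2 A226Y mice were below every WT mouse. Its log2 fold change was -0.38 (SE 0.17, adjusted p = 0.15, exact permutation p = 0.0768). Without A226Y animal 29 it was -0.49 (adjusted p = 0.0305), and without WT animal 33 it was -0.19 (adjusted p = 0.37). With both animals left out it was -0.30 (adjusted p = 0.0326).

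Of the protease genes of the lectin pathway, *Masp2* was called lower and *Masp1* was not. The difference between genotypes in their ratio within a mouse did not pass (exact permutation test, adjusted p = 0.068 over the pairs). *Masp2* (ENSMUSG00000028979, chr4:148602554-148615499, plus strand) encodes MASP-2, which cuts C4 and C2. It ranged from 176 to 297 CPM in WT mice (median 221) and from 154 to 213 CPM in A226Y mice (median 179), and the groups overlapped over much of this range. *Masp2* fell by 0.28 on the log2 scale (SE 0.09, adjusted p = 0.0407, exact permutation p = 0.00667), the weakest of the 5 calls. The call was lost when any of WT animals 13, 14, 21, 24 and 33 or A226Y animals 3, 5, 7, 11, 15, 18 and 23 was left out (adjusted p up to 0.0807). *Masp2* also lies opposite *Tardbp*, and 57.2% of its 50-base stretches belong to both genes, so without strand their reads cannot be told apart. *Tardbp* carried 59.8% to 78.2% as many counts as *Masp2* and had a log2 fold change of -0.11 (SE 0.08, adjusted p = 0.343).

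*Masp1* (ENSMUSG00000022887, chr16:23449417-23520815, minus strand), whose product MASP-1 activates MASP-2, ranged from 41.8 to 81.8 CPM in WT mice (median 58.5) and from 48.3 to 62.8 CPM in A226Y mice (median 57.5). All A226Y mice lay within the WT range. The log2 fold change was -0.04 (SE 0.09, 95% interval -0.23 to 0.15, adjusted p = 0.789, exact permutation p = 0.798), which leaves room for a change of either sign within that interval. Its sign turned to 0.01 when counts were scaled by library size only and to 0.04 without WT animal 33.

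The substrates of both routes were not called by edgeR with all mice, and *C4b* spread most between mice of the 10 genes. *C4b* (ENSMUSG00000073418, chr17:34728380-34743882, minus strand) encodes C4, which is cut to C4b and tethers the convertase to its target. It ranged from 703 to 2629 CPM in WT mice (median 1076) and from 572 to 1779 CPM in A226Y mice (median 651). A226Y animal 29 alone exceeded 705 CPM in its group, and 8 of 10 A226Y mice were below every WT mouse. The mean was 1174 ± 624 CPM (SD, n = 8) in WT and 753 ± 363 CPM (SD, n = 10) in A226Y mice. The log2 fold change of -0.64 (SE 0.26) was the most negative of the 10 genes and did not pass (adjusted p = 0.0953, exact permutation p = 0.0283). Without A226Y animal 29 it was -0.88 (adjusted p = 0.00607), and without WT animal 33 it was -0.36 (adjusted p = 0.259). With both animals left out it was -0.59 (adjusted p = 0.00284).

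*C2* (ENSMUSG00000024371, chr17:34862604-34898265, minus strand), which supplies the protease of the convertase, ranged from 56.8 to 136 CPM in WT mice (median 87.4) and from 54.9 to 104 CPM in A226Y mice (median 61.8). Outside animal 29, the A226Y mice sat in a narrow band of 54.9 to 65.7 CPM at the lower end of the WT range. Its log2 fold change was -0.41 (SE 0.15, adjusted p = 0.0658, exact permutation p = 0.0274). The call was gained without A226Y animal 29 (-0.51, adjusted p = 0.00997), without WT animal 4 (adjusted p = 0.0428) or without WT animal 6 (adjusted p = 0.0264), and in DESeq2 (adjusted p = 0.0372). Without WT animal 33 the log2 fold change was -0.29 (adjusted p = 0.142), and with animals 33 and 29 both left out it was -0.39 (adjusted p = 0.0132). The annotation also has the readthrough gene *Gm20547*, which joins *C2* to its neighbour *Cfb* and holds 58% of the 50-base stretches of *C2*. Its counts were 99.3% to 101.7% of those of *Cfb*, so the same reads can have been counted for both genes.

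*C4b* and *C2* lie 10.01 and 10.14 Mb from *Rps2* on chromosome 17, within reach of a flanking segment that a targeted line can keep from the strain of its stem cells. Of 203 tested genes between *Rps2* and *C2*, 28 (13.8%) were called lower, against 7.03% of all tested genes, and 9 higher, against 7.27%. An effect of such a segment and of the mutation cannot be told apart for these genes. In addition, 35.2% of the 50-base stretches of *C4b* occur in its near copy *C4a*, which was not analysed here.

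*C4bp* (ENSMUSG00000026405, chr1:130634773-130661632, minus strand), the gene of C4-binding protein, which holds C4b in check, ranged from 360 to 939 CPM in WT mice (median 430) and from 326 to 583 CPM in A226Y mice (median 398). The groups overlapped widely. A log2 fold change of -0.31 was measured (SE 0.17, 95% interval -0.66 to 0.05, adjusted p = 0.224, exact permutation p = 0.176), which was -0.12 without WT animal 33. *C4bp* was not called with any mouse left out or with both extreme mice left out.

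Per kilobase of the longest transcript, the level in WT livers was highest for *Mbl2* (470 CPM per kb), followed by *Serping1* (405), *C4b* (218), *C4bp* (165), *C1s1* (111), *Mbl1* (81.7), *Masp2* (71.7), *C1ra* (37.6), *C2* (32.8) and *Masp1* (11) on the same scale. Ranges over the WT mice overlapped between all neighbours in this order except *Masp2* and *C1ra*, and *C2* and *Masp1*. The spread between mice differed from gene to gene. The coefficient of variation in WT mice was 11.9% for *Mbl2* and 12% for *Mbl1*, 15.4% to 19.1% for *C1ra*, *C1s1*, *Masp1* and *Masp2*, and 29.1% for *C2*, 38.5% for *Serping1*, 39.7% for *C4bp* and 53.1% for *C4b*. The 5 genes with the widest spread in WT mice were the 5 that edgeR did not call, although *C4b* had the most negative log2 fold change of all.

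**Figure D2:**
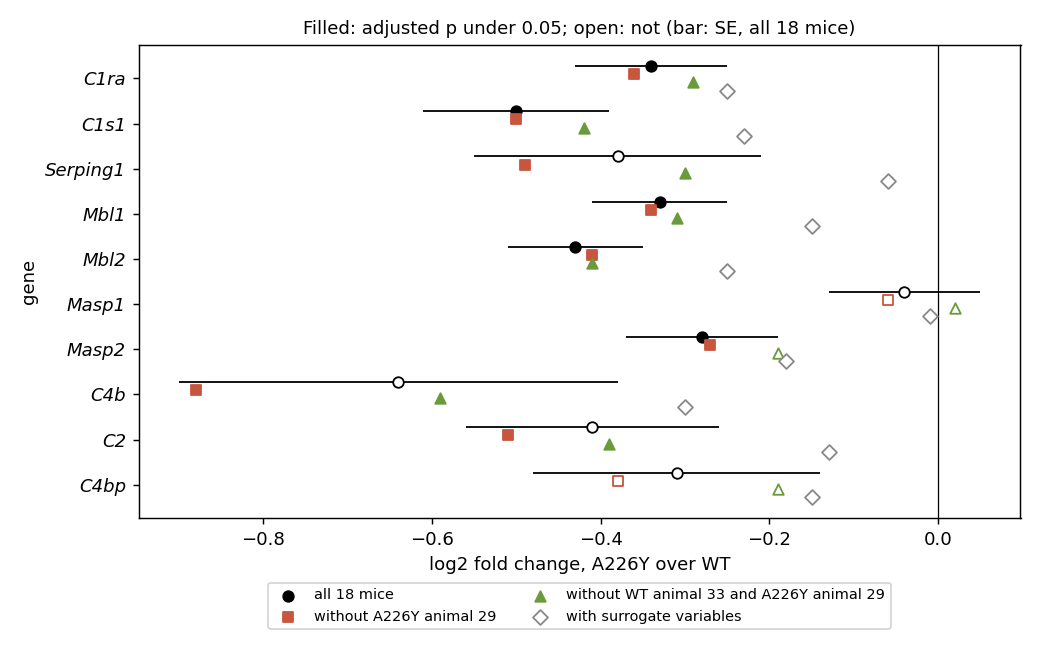
Log2 fold change of A226Y over WT (horizontal axis) for each complement gene, from all 18 mice (black, with SE), without A226Y animal 29 (red), without that mouse and WT animal 33 (green) and with surrogate variables (grey); filled symbols have an adjusted p under 0.05. *C4b* moves from -0.64 to -0.88 and becomes called without A226Y animal 29, *Masp1* stays near 0, and with surrogate variables all 10 symbols are open.

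Ratios of counts within a mouse, which need no scaling, were used to ask whether genes acting at the same step or against each other moved by different amounts. None of the 6 pairs passed after adjustment over the pairs. The log2 ratio of *C4b* to its inhibitor's gene *C4bp* was 1.18 ± 0.29 (SD, n = 8) in WT and 0.82 ± 0.31 (SD, n = 10) in A226Y mice, a difference of -0.35 (exact permutation p = 0.0253, adjusted p = 0.068). With WT animal 33 and A226Y animal 29 left out the difference was -0.40 (exact permutation test, adjusted p = 0.00682), and it also passed without A226Y animal 29 alone (-0.44, exact, adjusted p = 0.0037) and without WT animal 6 (-0.42, exact, adjusted p = 0.0387). The ratio of *Masp1* to *Masp2* was higher in A226Y mice by 0.24 (exact permutation p = 0.0291, adjusted p = 0.068), and 7 of 10 A226Y mice were above every WT mouse. It passed without WT animal 6 (exact, adjusted p = 0.0387) or A226Y animal 32 (exact, adjusted p = 0.0225). The ratio of *C1ra* to *C1s1* was higher by 0.16 (exact permutation p = 0.034, adjusted p = 0.068). It passed only without WT animal 6 (exact, adjusted p = 0.0387). The remaining differences were 0.10 for *Mbl1* to *Mbl2* (exact, adjusted p = 0.248), 0.21 for *C2* to *C4b* (exact, adjusted p = 0.174) and -0.16 for *C1s1* to *Serping1* (exact, adjusted p = 0.284). Of these, only *C2* to *C4b* passed in any setting, without A226Y animal 29 (0.28, exact, adjusted p = 0.0285).

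Across single mice, the genes did not vary independently of the animal. WT animal 33 was the highest of all 18 mice for 8 of the 10 genes, all but *Mbl1* and *Mbl2*, and lay above the WT mean for all 10. A226Y animal 29 was highest of its group for *C2*, *C4b*, *C4bp*, *Masp1* and *Serping1* and exceeded the WT mean for 5 genes, while for *C1s1*, *Mbl1*, *Mbl2* and *Masp2* it was below every WT mouse. WT animal 6 was the lowest WT mouse for 7 genes. Every other A226Y mouse exceeded the WT mean for at most 1 gene.

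**Figure D3:**
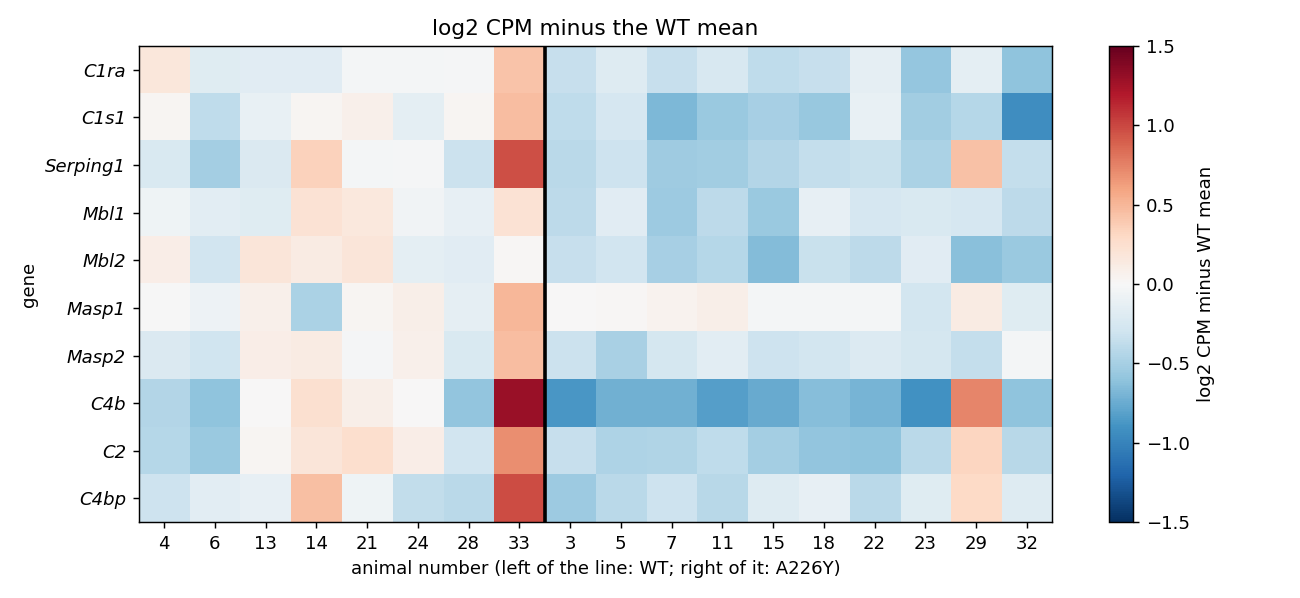
Log2 CPM minus the WT mean of each complement gene (rows) in each mouse (columns, by animal number, WT left and A226Y right of the line); red is above and blue below the WT mean. WT animal 33 is above the WT mean in all 10 rows, A226Y animal 29 in 5, and the other A226Y columns are mostly blue.

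The same animals were extreme for genes of inflammation. The serum amyloids *Saa1* and *Saa2*, acute phase genes that rise steeply in liver injury or infection, summed to 13222 CPM in A226Y animal 29, to 886, 408 and 198 CPM in WT animals 14, 33 and 21, and to between 15.6 and 56.6 CPM in all other mice. The list of 24 acute phase genes summed to 82222 CPM in A226Y animal 29 and to 59352 CPM in WT animal 33, against 19472 to 36754 CPM elsewhere. By genotype, 1 of these 24 genes was called lower and 0 higher, with 0 higher also at an unadjusted p under 0.05 and in DESeq2 and limma-voom, while DESeq2 called 5 and limma-voom 1 lower, and the median over the list was -0.08 on the log2 scale. The called gene was *Saa4*, a constitutive serum amyloid, at 315 ± 123 CPM (SD, n = 8) in WT and 174 ± 29.6 CPM (SD, n = 10) in A226Y mice (log2 fold change -0.86, adjusted p = 0.00389). With WT animal 33 and A226Y animal 29 left out, 7 of the 24 were called lower, against 9.13% of all tested genes, and with surrogate variables 0 were called and 2 were lower at an unadjusted p under 0.05. The part of inflammation in the differences between genotypes was not tested.

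Genes that respond to interferon were lower in A226Y livers for much of their list. Of 24 genes, 13 were called lower and 0 higher by edgeR, 17 and 14 lower and 0 higher by DESeq2 and limma-voom, and 0 were higher at an unadjusted p under 0.05. The median log2 fold change was -0.57. *Stat2* and *Irf1*, transcription factors of the interferon response, each fell by 0.42 on the log2 scale (adjusted p = 0.00444 and 0.00865), and the chemokine *Cxcl10* fell by 1.05 (adjusted p = 0.0121). The summed level was 603 to 1171 CPM in WT and 463 to 897 CPM in A226Y mice, highest in animals 33 and 29 of the respective groups. With both animals left out, 20 of the 24 were called lower, beside 7 of the 10 complement genes: *C1ra*, *C1s1*, *C2*, *C4b*, *Mbl1*, *Mbl2* and *Serping1*, against 9.13% of all tested genes in that fit. With surrogate variables none of the 24 was called and 4 were lower at an unadjusted p under 0.05. Whether the lower interferon-responsive genes bear on the complement genes was not tested.

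**Figure D4:**
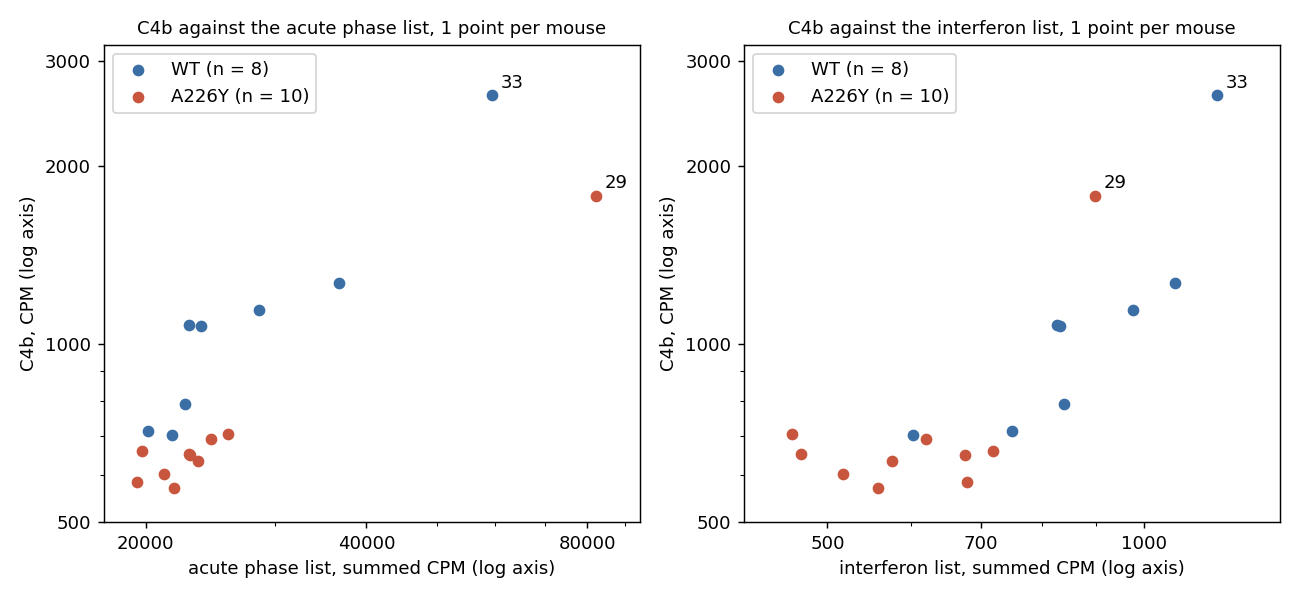
*C4b* in CPM (vertical log axis) against the summed CPM of the acute phase list (left, log axis) and of the interferon list (right, log axis), with 1 point per mouse, WT in blue (n = 8) and A226Y in red (n = 10). WT animal 33 and A226Y animal 29 have the highest *C4b*, 2629 and 1779 CPM, and the highest acute phase sums, 59352 and 82222 CPM.

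The other genes of the classical and lectin routes were taken from a list of 16, of which 11 could be tested. *Colec11*, a collectin that starts the lectin pathway, fell from 46.3 ± 6.26 CPM (SD, n = 8) to 37.6 ± 2.6 CPM (SD, n = 10; log2 fold change -0.30, adjusted p = 0.00867). *Fcna*, encoding the recognition molecule ficolin A, fell from 91.4 ± 9.7 to 70.6 ± 17.8 CPM (-0.37, adjusted p = 0.0445). These were the 2 called lower by edgeR, 0 were called higher by edgeR, DESeq2 or limma-voom, 0 were higher at an unadjusted p under 0.05 in edgeR, and the median over the list was -0.30 on the log2 scale. Both calls were lost with surrogate variables, a fit in which 2 genes of the list were lower and 2 higher at an unadjusted p under 0.05. The values of *Cr1l*, a complement regulator (-0.12, adjusted p = 0.16), and of *C1qa* and *C1qb*, chains of C1q (-0.44 and -0.42, adjusted p = 0.196 and 0.197), did not pass. *C3*, the substrate of the convertase, was at 9711 ± 2020 CPM (SD, n = 8) in WT and 7872 ± 2970 CPM (SD, n = 10) in A226Y mice (-0.30, adjusted p = 0.242). With WT animal 33 and A226Y animal 29 left out, 6 of the 11 were called lower, against 9.13% of all tested genes. *Colec10*, another collectin of the lectin pathway, was at 44.6 ± 3.58 CPM (SD, n = 8) in WT and 50.5 ± 10.8 CPM (SD, n = 10) in A226Y mice (0.18, adjusted p = 0.284).

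Downstream of the convertase, 15 genes of the alternative and terminal pathways were tested, with a median log2 fold change of -0.30. Lower were *C8g*, a chain of the membrane attack complex (-0.37, adjusted p = 0.0179), and *Cd59b*, an inhibitor of that complex (-0.79, adjusted p = 0.0236), the latter at a low level of 2.53 ± 0.718 CPM (SD, n = 8) in WT mice. *Vtn*, which encodes the inhibitor vitronectin, had a log2 fold change of -0.33 (adjusted p = 0.0718). None was called higher by edgeR, DESeq2 or limma-voom, 0 were higher at an unadjusted p under 0.05, DESeq2 called 5 lower, against 8.77% of all tested genes, and 8 were called lower with both extreme mice left out, against 9.13%. With surrogate variables 0 were called and 5 were lower at an unadjusted p under 0.05.

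C1q is made mainly by macrophages, and markers of other liver cells were counted beside the complement genes. Of 10 Kupffer cell and macrophage markers, 1 was called lower, *Clec4f* (log2 fold change -0.65, adjusted p = 0.0261), and 0 higher. Of all tested genes, 7.03% were called lower and 7.27% higher. *Marco* went the other way (0.83, adjusted p = 0.294). Over the 10 markers the median was -0.41, with 8 of them negative. Their summed level was 552 to 1063 CPM in WT and 377 to 1349 CPM in A226Y mice, and it was highest in WT animal 33 and A226Y animal 29, as was the sum of the C1q genes at 334 and 414 CPM. With both animals left out 5 of the 10 were called lower, against 9.13% of all tested genes. With surrogate variables 0 were called, with 1 lower and 1 higher at an unadjusted p under 0.05. Of 10 stellate cell and fibroblast markers, the collagens *Col3a1*, *Col1a1* and *Col1a2* were called lower (-0.60, -0.77 and -0.33) and 0 higher, with 1 higher at an unadjusted p under 0.05. The other 7 were not called by edgeR: *Dcn*, a matrix proteoglycan gene, had 0.18 (adjusted p = 0.0913), DESeq2 called 1 gene higher, and the median over the list was -0.03 with 5 of 10 negative. The list had sums of 309 to 391 CPM in WT and 318 to 380 CPM in A226Y mice. The lymphocyte markers had 0 calls by edgeR, DESeq2 and limma-voom, and 1 lower at an unadjusted p under 0.05 in edgeR. Their median log2 fold change was -0.40 with all 10 negative. Their sums were 97.6 to 1128 CPM in WT (median 117) and 92.4 to 436 CPM in A226Y mice (median 135). The median sum was thus higher in A226Y mice, while WT animals 33 and 13 had the highest sums (1128 and 579 CPM). With WT animal 33 and A226Y animal 29 left out 0 of these markers were called. The part of these cells in the complement differences was not tested.

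Hepatocytes make most of the 10 genes. Of 12 hepatocyte markers, 0 were called lower and 3 higher, the urea cycle gene *Cps1* (log2 fold change 0.55, adjusted p = 0.0137), *Apob*, the protein core of secreted lipoproteins (0.29, adjusted p = 0.0329), and *Tat*, which breaks down tyrosine (0.85, adjusted p = 0.0331), while 3 were lower and 5 higher at an unadjusted p under 0.05 and DESeq2 called 2 lower and 4 higher. With WT animal 33 and A226Y animal 29 left out, 1 marker was called lower and 2 higher, and with surrogate variables 0 were called and 3 were lower at an unadjusted p under 0.05. Of 14 hepatocyte regulators tested, 0 were called higher by edgeR, DESeq2 or limma-voom or at an unadjusted p under 0.05. The transcription factor gene *Foxa2* was called lower (-0.33, adjusted p = 0.0148), *Cebpa* had -0.33 (adjusted p = 0.0697) and *Nr5a2* 0.13 (adjusted p = 0.242). With both extreme mice left out 2 regulators were called lower. The sinusoidal endothelial markers had 0 calls by edgeR, DESeq2 and limma-voom, with 1 lower and 1 higher at an unadjusted p under 0.05, and sums of 418 to 568 CPM in WT and 429 to 611 CPM in A226Y mice. The 6 cholangiocyte markers tested had 0 calls by the same tools, with 1 higher at an unadjusted p under 0.05 in edgeR, 1 called higher with surrogate variables, and sums of 21.9 to 37.7 CPM in WT and 23.1 to 38.2 CPM in A226Y mice.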

How the data were processed

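The authors deposited raw counts of reads, as whole numbers for each Ensembl gene and mouse. The paper's methods name RSEM with an Ensembl annotation, while the submitters' processing notes list bcl2fastq, fastp, STAR, featureCounts, MultiQC and GRCm38, and which of them gave these counts is not stated. Strand was not used here, so overlapping and antisense genes are uncertain. Libraries were short single-end reads.

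Groups came from the labels. From the counts, 13353 genes that reached 10 counts in 50% or more of the WT or of the A226Y mice were tested with edgeR (version 4.0.16, R 4.3.3), using TMM scaling, the two-sided quasi-likelihood test without covariates and Benjamini-Hochberg adjustment over all tested genes at 0.05. SE is the log2 fold change divided by the square root of F, and 95% intervals use 16 degrees of freedom. For single genes (log2 CPM, prior count 2) and for log2 ratios within a mouse, exact permutation tests, two-sided, were run, the ratios adjusted over 6 pairs. GENCODE M21 (GRCm38) gave symbols and positions for 22214 identifiers and none for 310, and RefSeq gave the promoters. Counting error is small at these depths, and precision is set by the spread between mice (common biological coefficient of variation 0.194). Mice of a genotype are separate animals, and no 2 agreed within sampling noise (chi-square per degree of freedom at least 19.2).

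Alternatives were other scalings and filters, DESeq2 1.42.0, limma-voom 3.58.1, 4 surrogate variables (sva 3.50.0), loess offsets on transcript length or GC content and leaving out mice. The procedures were tested on simulated data. The genes, the lists and the extreme mice were chosen with earlier results of these data known. Values are given for the 10 genes, for *Rps2* and for the genes of smallest p-value in each list, at most 5 of the other classical and lectin genes and 3 of the others. *C3*, *Saa1*, *Colec10*, *Dcn*, *Marco* and the readthrough and antisense partners were named after their values were seen.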

Additional observations from a re-analysis of the deposited data

Results flagged for a closer look

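In 7 of the 20 groups of mice looked at (10 genes, each in WT and in A226Y), the highest mouse lay further from the next than the usual limit for a single outlying value, and chance alone flags about 1 group in 20. The genes are not independent, so these are few animals seen many times. In WT animal 33, *C1s1* was 447 CPM, *C4b* 2629 CPM and *Serping1* 1335 CPM. In A226Y animal 29, *C2* was 104 CPM, *C4b* 1779 CPM, *C4bp* 583 CPM and *Serping1* 920 CPM. The gap to the next mouse was largest, as a share of the group's range, for *C4b* in A226Y animal 29 (0.89). No lowest mouse was flagged. *Saa1* and *Saa2* summed to 13222 CPM in A226Y animal 29, 408 CPM in WT animal 33 and 886 CPM in WT animal 14, none of whose complement values stood apart in this way, and whether inflammation in these animals bears on their complement values was not tested.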

How the results depend on the processing

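Of the 5 calls, *C1ra*, *C1s1*, *Mbl1* and *Mbl2* held in every setting run except surrogate variables, while *Masp2* was also lost with library size only, without the count filter, with the length offset, with both extreme mice left out and in 12 of 18 leave-one-out fits. With surrogate variables 21 genes were called lower and 29 higher, and 0 of the 10 complement genes; the cause was not tested. Leaving out each mouse in turn gave 4 to 8 complement genes lower (8 without A226Y animal 29), 622 to 1372 genes lower and 633 to 1268 higher; the lowest counts came without WT animal 14. Without WT animal 24, 641 genes were called higher. DESeq2 called 6 complement genes lower. With library size only, 67.9% of calls were higher, against 50.8%, the median of all genes was 0.04 and 4 complement genes were lower. *Masp1* turned to 0.01 with library size only and to 0.02 with both extreme mice left out, and ranged from -0.10 to 0.04 with each mouse left out. With single mice left out, ratio differences ranged from 0.13 to 0.19 (*C1ra* to *C1s1*), 0.13 to 0.28 (*C2* to *C4b*), -0.44 to -0.30 (*C4b* to *C4bp*; -0.40 with both extreme mice left out), 0.16 to 0.29 (*Masp1* to *Masp2*), -0.24 to -0.09 (*C1s1* to *Serping1*; without WT animal 33 and without A226Y animal 29) and 0.05 to 0.13 (*Mbl1* to *Mbl2*; lowest without WT animal 13). No paired analysis was possible because the groups share no animal numbers. Each complement gene had at least 1073 counts in every library, so counting error is small beside the spread between mice.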
